A study of Mus musculus with 90 samples.

Results

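The data describe how the RNA of a vein differed between estrus, the ovulatory phase of the mouse estrous cycle, and diestrus, the quiet phase dominated by progesterone. The members were the 6 libraries whose label gives Vein as the tissue, out of 90 libraries covering 15 tissues, with 3 libraries for estrus and 3 for diestrus. All came from female C57BL/6 mice, aged 10 weeks by the labels and somewhat younger by the study's methods, untreated and with no engineered allele. The phase of each mouse was read from vaginal smears stained with methylene blue. Serum estrogen and progesterone of mice were measured as an aid to staging, by the study's methods. By the study's text each phase had 3 mice, the replicates, and every tissue was taken from them, so that vein and aorta libraries share animals. The sources used here do not say which vein was taken or at what hour tissues were collected. Each value is an FPKM, the fragments of a gene scaled to transcript length and to library depth. The tables listed 20414 genes, of which 13239 passed a floor of 1 FPKM on their vein mean and were compared.

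A vein is a thin tube of endothelium, smooth muscle and fibroblasts held in collagen and elastin, with an outer coat that runs into fat, nerve and lymph vessels. Endothelium, smooth muscle and fat cells carry receptors for estrogen. Vessel cells also run a circadian clock, in which BMAL1 (encoded by Arntl) and CLOCK switch on the Per, Nr1d and Dbp genes and are held back by their products, so that Arntl and Dbp peak at opposite hours of the day.

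The total FPKM per library lay between 457528 and 497049. No counts were used here, so depth was estimated from the most common low value of rarely detected short genes, taken as 1 read, in 25 to 33 genes a library. On that rough estimate 1 read in a transcript of 2000 bases was worth 0.035 to 0.039 FPKM, and the 6 libraries were of like depth. Endothelial genes were high in the tissue. Pecam1, an adhesion protein of endothelium, had a mean of 174 FPKM in vein (range 126.41 to 238.36), against 101 in aorta and less in each of the other 13 tissues. Cdh5, another endothelial gene, did not set vein apart. It averaged 84.1 FPKM in vein, 84.0 in heart, 74.6 in aorta and 72.3 in brown adipose tissue. The smooth muscle myosin Myh11 averaged 320 FPKM in vein and 475 in aorta. Nr2f2, the transcription factor that sets venous fate, averaged 47.3 FPKM in vein and 20.3 in aorta, while Gja5 and Efnb2, both counted as arterial genes, averaged 9.45 and 12.0 FPKM in vein and 6.66 and 10.5 in aorta.

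Much of the RNA was of fat. The 10 most abundant genes were Fabp4, Cfd, Car3, Hba-a1, Scd1, B2m, Hbb-bs, Eef1a1, Gpx3 and Gm20594, and of these Fabp4, Cfd, Car3 and Scd1 are expressed by adipocytes. Ucp1, the uncoupling protein of brown fat, averaged 395 FPKM in vein, 1809 in aorta and 4416 in brown adipose tissue. The hepatocyte gene Alb did not exceed 0.45 FPKM, the kidney gene Umod 0.11 and the heart muscle gene Myh6 1.66. Th, the first enzyme of noradrenaline synthesis, averaged 298 FPKM in vein (range 173.38 to 401.72) and 0.223 in aorta, and no other tissue exceeded 79.68 in any library. In bulk tissue, fewer cells of a type and less RNA per cell cannot be told apart.

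One library stood apart. In estrus replicate 3, 238 genes exceeded every other vein library by 1 or more in log2(FPKM + 1), against 3 to 20 genes in each of the other 5, and the leading ones were genes of lymphocytes and lymph node. Cd79a, the signalling chain of the B cell receptor, was at 89.16 FPKM in estrus replicate 3 and between 1.75 and 3.1 in the other 5 libraries. Diestrus replicate 3 carried 20 such genes, led by Gbp2b, Gbp4 and Ccl8, of a kind induced by interferon gamma. The fit was therefore repeated without estrus replicate 3.

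No gene met the criterion of a 2-fold difference and an adjusted p of at most 0.05 (0% of 13239 genes, limma with Benjamini-Hochberg adjustment), and the lowest adjusted p was 0.280. A single fit of all 90 libraries, which takes its spread from every tissue, called 18 genes, 11 higher and 7 lower in estrus, with Elovl3, Per1, Tsc22d3, Glycam1 and Ccr7 among the former and Fabp7, Foxs1 and Heyl among the latter. Glycam1 and Ccr7 were highest in estrus replicate 3, the library with lymph node genes. At an unadjusted p under 0.05 there were 1597 genes, which is 12.1% of those tested, 454 higher and 1143 lower in estrus. The 3 estrus values lay all above the 3 diestrus values for 699 genes (5.28%) and all below for 1707 genes (12.9%). Without estrus replicate 3 those shares were 8.93% and 24.2% of 13136 genes, with 3 diestrus values against 2. Genes differing by 1 or more in log2(FPKM + 1) were 95 toward estrus and 31 toward diestrus. Without estrus replicate 3 they were 55 and 41. The 8 genes that shared the lowest adjusted p were Mt1, Aspg, Apoc2 and Sytl1 on the estrus side and Fabp7, Creb3l1, Spon2 and Col15a1 on the diestrus side, of which Spon2, a matrix protein at 0.56, 0.53 and 0.71 FPKM in estrus against 3.6, 3.01 and 2.92 in diestrus, had the smallest unadjusted p. An exact permutation test of 3 against 3 cannot give a two-sided p under 0.1, so single genes are described by their 6 values and by whether the phases overlap.

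The scale has a lean that touches every direction below. Counts of list members without overlap are to be read beside 5.28% of all genes with estrus higher and 12.9% with diestrus higher. The median difference over all tested genes was -0.10 (estrus minus diestrus), and 33.0% of genes were positive. Upper quartile scaling put the median at -0.03 with 43.6% positive, and quantile normalization put it at 0.00 with 49.2% positive. With quantile normalization the genes at p under 0.05 were 631 higher and 695 lower, and the genes without overlap were 1065 higher and 1019 lower.

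The clock genes that peak with Dbp were higher in estrus. Of 11 such genes, all 11 were positive, 9 had no overlap with estrus higher, and their median difference was 1.10 on the log2(FPKM + 1) scale, or 1.14 without estrus replicate 3. Of 6 genes that peak with Arntl, 3 had no overlap with diestrus higher, and the median was -0.54. None passed the adjusted test. Short sequences read by the clock, an E-box (CACGTG, the site of CLOCK and BMAL1) and a D-box (TTATGTAA, bound by DBP, TEF and HLF), were searched on both strands in RefSeq windows of 300 bases around start sites (GRCm38.p6). An E-box was present for 4 of the 10 Dbp-phase genes with a window and for 1 of 5 Arntl-phase genes, and in 7.15% of all 32851 windows or 8.09% of genes with one. A D-box was present for Per3 alone, and in 0.938% of all windows or 1.11% of genes. No window of these genes held both, and a match in letters does not show binding. The 250 bases before the start site are given for 3 of the genes with matches that were among the 12 leading genes of estrus, with the matches in capitals.
Ciart, chr3:95882229-95882478, minus strand: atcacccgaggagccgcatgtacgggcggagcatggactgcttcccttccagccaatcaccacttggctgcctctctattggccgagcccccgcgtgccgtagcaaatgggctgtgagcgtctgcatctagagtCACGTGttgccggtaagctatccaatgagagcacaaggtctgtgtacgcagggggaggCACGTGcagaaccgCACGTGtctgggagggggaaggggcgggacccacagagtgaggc
Per1, chr11:69098699-69098948, plus strand: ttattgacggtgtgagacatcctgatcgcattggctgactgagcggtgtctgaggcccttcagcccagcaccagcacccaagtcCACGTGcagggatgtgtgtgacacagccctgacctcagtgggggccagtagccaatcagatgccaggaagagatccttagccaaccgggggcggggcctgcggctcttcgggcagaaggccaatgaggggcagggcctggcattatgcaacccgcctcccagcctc
Per3, chr4:151044666-151044915, minus strand: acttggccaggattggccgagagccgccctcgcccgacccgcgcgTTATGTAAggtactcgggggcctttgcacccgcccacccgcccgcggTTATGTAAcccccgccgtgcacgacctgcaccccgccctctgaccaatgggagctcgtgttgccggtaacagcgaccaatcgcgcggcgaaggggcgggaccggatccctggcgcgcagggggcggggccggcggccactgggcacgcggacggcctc

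The E-boxes of Ciart began 116, 58 and 44 bases before the start site, that of Per1 began 166 bases before it, and the D-boxes of Per3 began 205 and 158 bases before it.

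Ciart, which encodes a repressor of BMAL1, was at 22.39, 11.23 and 11.96 FPKM in estrus against 1.09, 3.74 and 1.81 in diestrus. The difference was 2.35 ± 0.36 (SE) on the log2(FPKM + 1) scale with an adjusted p of 0.384, and 2.48 without estrus replicate 3. Each estrus library lay well above all 3 diestrus libraries. Dbp itself, a transcription factor of the clock's output, was at 252.14, 125.11 and 133.9 FPKM in estrus against 4.6, 82.35 and 73.92 in diestrus, so that the phases did not overlap but 1 diestrus library lay far below the other two. Its difference was 2.31 ± 1.0, and without diestrus replicate 1, the lowest library, it was 1.04. Over the Dbp-phase list the median without that library was 0.66.

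The repressors Per1, Per2 and Per3 had the same order of libraries in diestrus. Per2 was at 17.79, 15.84 and 16.96 FPKM in estrus against 1.28, 11.39 and 4.96 in diestrus. Per1 was at 42.43, 16.13 and 33.89 FPKM in estrus against 5.17, 15.88 and 8.96 in diestrus. For Per1 the phases nearly met, in estrus replicate 2 and diestrus replicate 2. Per3 was at 25.43, 22.4 and 21.5 FPKM in estrus against 3.04, 17.79 and 11.62 in diestrus. In all of Dbp, Per1, Per2 and Per3, diestrus replicate 1 was the lowest of the 6 libraries. Tef and Hlf, relatives of Dbp that bind the same D-box, differed by 1.10 ± 0.37 and 1.08 ± 0.28, and Nr1d2 and Bhlhe41, both repressors, by 0.87 ± 0.38 and 0.93 ± 0.28, each with no overlap. Nr1d1 and Cry2, both repressors as well, overlapped, with differences of 0.26 ± 0.34 and 0.10 ± 0.11.

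Arntl ran the other way, at 0.99, 1.67 and 1.87 FPKM in estrus against 12.93, 4.1 and 3.76 in diestrus, a difference of -1.49 ± 0.41. Npas2, a stand-in for CLOCK in the same complex, was at 0.23, 0.11 and 0.2 FPKM in estrus against 8.56, 1.0 and 1.21 in diestrus. Clock was at 3.21, 4.32 and 4.02 FPKM in estrus against 8.18, 5.74 and 5.53 in diestrus, again with no overlap. Diestrus replicate 1 was the highest library for all of these, and for Nfil3, whose phases overlapped. Without diestrus replicate 1 the difference was -0.99 for Arntl and -0.46 for Clock, Npas2 fell under the filter, and the median of the Arntl-phase list was -0.03. Usp2, a ubiquitin protease under clock control, was at 17.26, 17.17 and 22.74 FPKM in estrus against 3.88, 8.98 and 5.7 in diestrus.

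**Figure D1:**
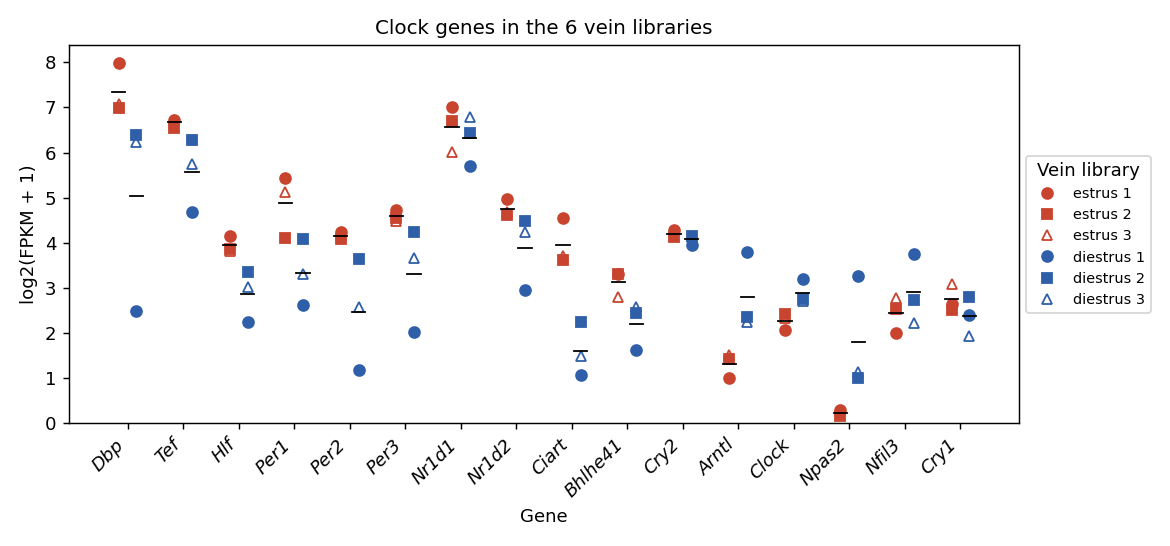
Expression of 16 clock genes in vein, as log2(FPKM + 1) on the vertical axis, with red points for the 3 estrus libraries, blue points for the 3 diestrus libraries and a black bar for each phase mean. Estrus points sit above diestrus points for 9 of the first 11 genes, and diestrus replicate 1 (blue circle) is lowest for Dbp and highest for Arntl and Npas2.

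Genes induced by glucocorticoids and by metals were the second group higher in estrus. Of 18 listed, 13 were positive and 5 negative, 7 had no overlap with estrus higher and none with diestrus higher, and the median difference was 0.59, or 0.45 without estrus replicate 3. Per1 is among the 7 and also a clock gene. Mt1, a metallothionein that binds zinc and copper, was at 273.36, 283.65 and 261.78 FPKM in estrus against 141.98, 144.56 and 114.36 in diestrus. This was a difference of 1.03 ± 0.13 with an adjusted p of 0.280, the lowest value reached by any gene and shared with 7 others. Mt2 was at 74.03, 84.18 and 96.7 FPKM in estrus against 34.77, 45.24 and 55.78 in diestrus, so both metallothioneins were higher in every estrus library.

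Tsc22d3, the glucocorticoid-induced leucine zipper, was at 65.26, 37.09 and 97.09 FPKM in estrus against 18.92, 28.46 and 24.19 in diestrus. Its difference of 1.36 ± 0.34 became 1.03 without estrus replicate 3, the highest library. Fkbp5, a chaperone of steroid receptors, was at 9.42, 14.06 and 26.36 FPKM in estrus against 6.08, 4.61 and 6.46 in diestrus, and its difference of 1.29 became 0.91 without that library. Klf9 and Sult1a1 also had no overlap, with differences of 0.54 ± 0.17 and 0.64 ± 0.23. Other members of the list did not separate. Zbtb16, a zinc finger factor, was at 4.68, 25.15 and 17.63 FPKM in estrus against 3.47, 2.99 and 4.73 in diestrus, so that estrus replicate 1 lay within the diestrus range. Ddit4 differed by 1.00 and Pdk4 by -0.61, both with overlap. Angptl4, an inhibitor of lipoprotein lipase, was the member farthest toward diestrus, at 82.75, 34.58 and 22.25 FPKM in estrus against 125.29, 70.85 and 147.93 in diestrus. Nr3c1, the glucocorticoid receptor, overlapped between the phases, at 21.24, 23.93 and 25.15 FPKM in estrus against 28.01, 26.34 and 23.97 in diestrus.

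Genes of fat cells and of fatty acid synthesis leaned toward estrus. All 14 white adipocyte genes were positive, with a median of 0.53 (0.57 without estrus replicate 3), and 3 had no overlap. Dgat2, which makes triglyceride, was at 542.51, 1118 and 915.22 FPKM in estrus against 498.87, 416.77 and 455.07 in diestrus. Cidec, a protein of the lipid droplet, differed by 0.84 ± 0.28 and Pnpla2, the main triglyceride lipase, by 0.71 ± 0.23. The sum over the white adipocyte list ran from 28365 to 39185 FPKM in estrus against from 16468 to 28816 in diestrus. Diestrus replicate 2 had the lowest of these sums, and it had the highest of the sums over the smooth muscle and the matrix lists. Without it the median of the white adipocyte list was 0.30, with 12 genes positive and 2 negative. Quantile normalization of all 6 libraries gave 0.29, also with 12 positive and 2 negative, and upper quartile scaling gave 0.60 with all 14 positive.

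Of 16 genes of fatty acid synthesis, 15 were positive, 2 had no overlap, and the median was 0.67, which was 0.28 without estrus replicate 2 and 0.44 without diestrus replicate 2. Without estrus replicate 1 it was higher, with all 16 positive and 14 at an unadjusted p under 0.05. Acacb, an acetyl-CoA carboxylase, was at 78.11, 144.24 and 103.75 FPKM in estrus against 44.76, 49.97 and 63.27 in diestrus. Agpat2, an enzyme of phospholipid and triglyceride assembly, differed by 0.88 ± 0.31. Fasn, the fatty acid synthase, and Thrsp overlapped, with differences of 0.97 ± 0.53 and 1.01 ± 0.47, and estrus replicate 1 lay low at 541.63 and 858.31 FPKM. The 11 brown adipocyte genes were all positive with a median of 0.53, which was 0.94 without estrus replicate 3 and 0.35 with estrus replicate 1 left out, and 1 of them had no overlap.

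That gene was Elovl3, a fatty acid elongase, which had the largest difference of the leading genes. It was at 19.14, 33.54 and 15.54 FPKM in estrus against 2.71, 6.64 and 1.76 in diestrus, a difference of 2.40 ± 0.42 with an adjusted p of 0.412. Every estrus library was more than 2 times the highest diestrus library. Other enzymes among the leading genes followed it. Glul, glutamine synthetase, was at 871.64, 1498.49 and 1256.95 FPKM in estrus against 462.85, 471.09 and 477.48 in diestrus, where the 3 libraries lay close together. Aspg, an asparaginase, was at 54.28, 59.2 and 43.59 FPKM in estrus against 19.18, 25.05 and 16.37 in diestrus. Acot11, a thioesterase of brown fat, differed by 1.41 ± 0.36 and Mpzl2, an adhesion protein, by 1.32 ± 0.22. Mup22 differed by 1.30 ± 0.36, but major urinary protein genes are near copies of each other and reads could be shared among them.

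Leaving out estrus replicate 3 brought in 8 more genes on this side. Among them were Nrg4, a growth factor ligand secreted by fat, at 75.76, 101.54 and 93.16 FPKM in estrus against 31.47, 35.25 and 52.99 in diestrus, and Aacs, which activates ketone bodies for lipid synthesis, at 90.78, 183.38 and 144.07 against 62.71, 40.95 and 72.29. The others were Poln (a DNA polymerase), Rhbg (an ammonium transporter), Gys2 (a glycogen synthase), Zbed5, Acaa1b (a peroxisomal thiolase) and Adora1 (an adenosine receptor), with differences between 1.15 and 1.25 without that library and between 0.92 and 1.25 with it. All 8 had no overlap over the 6 libraries. Of 6 tested genes on the hepatocyte list, Cyp2e1, a cytochrome also made in fat, was at 1667.83, 1638.9 and 1679.43 FPKM in estrus against 1152.37, 536.93 and 1018.73 in diestrus, and Apoa1 differed by 0.44 ± 0.18, both with no overlap.

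**Figure D2:**
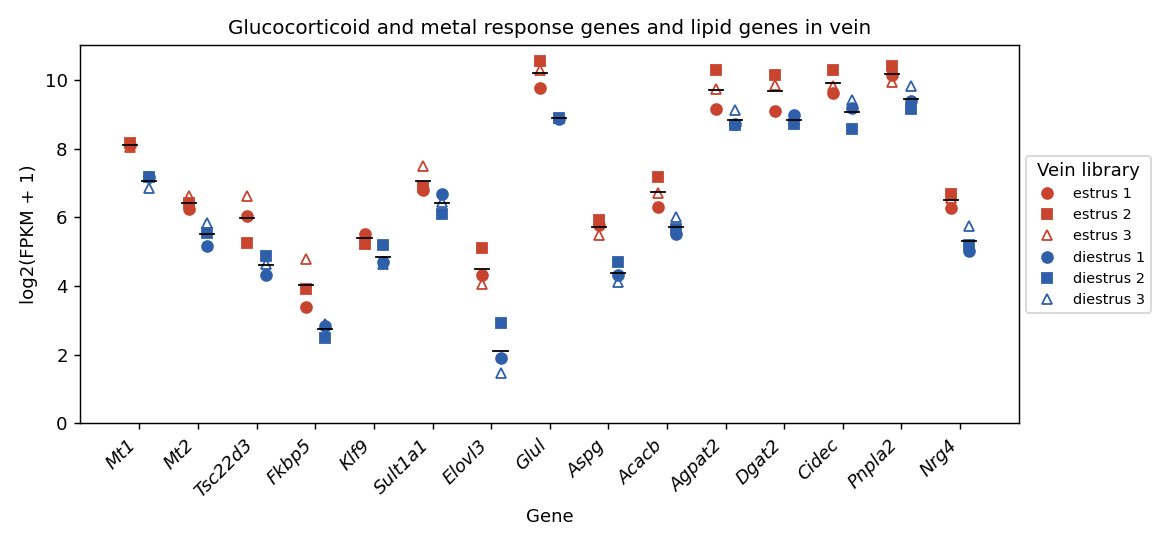
Glucocorticoid and metal response genes (left) and lipid and metabolic genes (right) in vein, as log2(FPKM + 1) with 1 point per library and a black bar for each phase mean. All 15 genes shown are ones without overlap, so the 3 estrus points lie above the 3 diestrus points for each. Elovl3, Glul and Mt1 are among the widest gaps and Klf9 among the narrowest. Only 7 of 18 listed response genes, 3 of 14 white adipocyte genes and 2 of 16 fatty acid synthesis genes had no overlap.

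Genes of the extracellular matrix were lower in estrus. All 24 listed fibroblast and matrix genes were negative, 9 had no overlap with diestrus higher, and the median was -0.68, or -0.78 without estrus replicate 3, against -0.10 over all genes. Eln, elastin, was at 114.92, 63.32 and 81.44 FPKM in estrus against 326.35, 401.5 and 179.14 in diestrus. Its difference was -1.76 ± 0.34 with an adjusted p of 0.412, and the phases lay clear of each other. Fbn1, the fibrillin of the microfibrils on which elastin is laid, was at 6.66, 3.81 and 5.33 FPKM in estrus against 14.52, 12.52 and 10.62 in diestrus. Lox, a leading gene outside the list that crosslinks elastin and collagen, was at 6.63, 5.89 and 8.15 FPKM in estrus against 20.6, 19.1 and 10.58 in diestrus. All of these had their 3 lowest values in estrus, while Loxl1, another elastin crosslinker, and Mfap5, a microfibril protein, overlapped at 34.47, 17.13 and 18.21 against 35, 42.36 and 26.13 FPKM and at 35.77, 20.56 and 34.49 against 46.43, 71.05 and 32.01 FPKM.

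The fibrillar collagens had the same order. Col3a1 was at 179.78, 98.26 and 156.14 FPKM in estrus against 224.51, 419.09 and 275.16 in diestrus, a difference of -1.07 ± 0.30. Col1a1 was at 182.38, 97.68 and 162.23 FPKM in estrus against 224.46, 427.13 and 243.9 in diestrus. Estrus replicate 2 was the lowest and diestrus replicate 2 the highest for both. Col1a2, Col5a1, Col6a1, Col14a1 and Sparc also had no overlap, with differences between -0.54 and -0.92. Creb3l1, a transcription factor of the endoplasmic reticulum that serves collagen secretion, was at 10.88, 9.74 and 10.26 FPKM in estrus against 23.61, 26.92 and 19.41 in diestrus. Its difference was -1.10 ± 0.14. Antxr1, a receptor that binds collagen, differed by -1.12 ± 0.29, and Serpinh1, the collagen chaperone, by -0.63 ± 0.23. Dcn and Pdgfra, which mark fibroblasts as such, differed by -0.56 ± 0.27 and -0.59 ± 0.20, both with overlap. The median of the matrix list was -0.45 without estrus replicate 2 and -0.48 without diestrus replicate 2.

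The sum over the smooth muscle list was 5690, 2616 and 3429 FPKM in estrus against 4766, 7764 and 3384 in diestrus, so that the phases overlapped while estrus replicate 2 was lowest and diestrus replicate 2 highest, as for the collagens. All 20 smooth muscle genes were negative with a median of -0.44, but only Sync had no overlap, and the median was -0.15 with 5 positive without diestrus replicate 2 and -0.21 without estrus replicate 2. Acta2, smooth muscle actin, was at 1370.9, 643 and 801.82 FPKM in estrus against 1314.62, 2029.55 and 894.39 in diestrus. All 18 endothelial genes were negative with a median of -0.31, which was -0.17 without estrus replicate 2 and -0.18 without diestrus replicate 2. Cldn5 and Tek had no overlap, 2 of 18 beside 12.9% of all genes. The part of wall and fat content in the matrix and lipid differences was not tested.

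Cldn5, the claudin of endothelial tight junctions, was at 45.57, 21.28 and 37.38 FPKM in estrus against 71.79, 71.48 and 65.05 in diestrus, a difference of -1.04 ± 0.26. Tek, the angiopoietin receptor, was at 18.54, 13.12 and 15.58 FPKM in estrus against 23.92, 25.51 and 18.94 in diestrus. Of 11 venous genes 10 were negative, with a median of -0.36, and Nrp2, a receptor of veins and lymph vessels, was the one with no overlap. Of 16 arterial genes all were negative, with a median of -0.21, and Hey2, a Notch target, was at 16.21, 10.84 and 11.8 FPKM in estrus against 18.41, 25.93 and 19.72 in diestrus. Leaving out estrus replicate 2 gave medians of -0.21 for the venous and -0.15 for the arterial list, and leaving out diestrus replicate 2 gave -0.19 and -0.11. Of 8 lymphatic genes, Itga9 alone had no overlap, with a difference of -0.76 ± 0.27. Nrp2, Hey2 and Itga9 were each the 1 gene without overlap, of 11, 16 and 8, shares no higher than the 12.9% of all genes.

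Heyl, another Notch target, found in the mural cells around vessels, was at 10.85, 8.13 and 8.21 FPKM in estrus against 24.78, 32.87 and 13.97 in diestrus. Foxs1, a forkhead transcription factor, was at 3.07, 1.67 and 3.48 FPKM in estrus against 15.06, 17.02 and 8.68 in diestrus, a difference of -1.95 ± 0.29 with an adjusted p of 0.349. Sost, the Wnt inhibitor sclerostin, was at 16.01, 6.87 and 6.58 FPKM in estrus against 29.6, 38.28 and 18.41 in diestrus. Each of the 3 had its lowest diestrus value in replicate 3 and no overlap. Slc25a34 and Mmd2 completed the 12 leading genes on this side, with differences of -1.21 ± 0.40 and -1.10 ± 0.33. Without estrus replicate 3, Cldn5, Col1a1 and Col3a1 entered with 5 others, Pdgfrl, Rasl11a, Klk10 (a secreted peptidase), Kcna1 (a potassium channel) and Dtx4 (a Notch pathway ligase), at differences between -1.08 and -1.36. Pdgfrl and Rasl11a overlapped once that library was counted, with differences of -1.03 and -0.95.

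**Figure D3:**
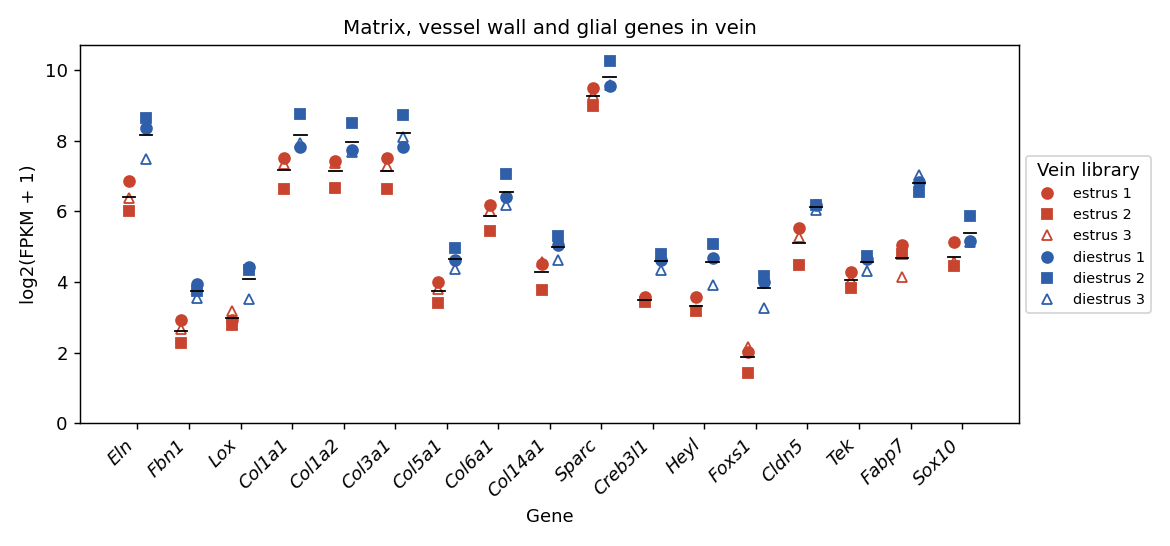
Matrix, vessel wall and glial genes in vein, as log2(FPKM + 1) with 1 point per library and a black bar for each phase mean. All 17 genes shown are ones without overlap, so the 3 diestrus points (blue) lie above the 3 estrus points (red) for each. They lie apart most widely for Eln, Foxs1 and Fabp7. Only 9 of 24 matrix genes, 2 of 18 endothelial genes and 4 of 14 nerve genes had no overlap.

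Genes that set vascular tone also lay toward diestrus. Of 35 tested, 32 were negative, where 33.0% of all genes were positive, 7 had no overlap with diestrus higher, beside 12.9% of all genes, and 1 with estrus higher. Their median was -0.32, and it was -0.20 without either estrus replicate 2 or diestrus replicate 2. Edn1, the vasoconstrictor endothelin-1, was at 9.55, 7.66 and 8.75 FPKM in estrus against 14.28, 13.7 and 11.83 in diestrus, a difference of -0.56 ± 0.13. Nos3, the endothelial nitric oxide synthase, was at 22.88, 23.19 and 26.42 FPKM in estrus against 28.47, 33.85 and 27.25 in diestrus. Adm, the vasodilator adrenomedullin, was at 9.8, 6.41 and 7.87 FPKM in estrus against 19.61, 18 and 11.2 in diestrus. Constrictors and dilators thus lay on the same side. Gucy1a1, a subunit of the nitric oxide receptor, differed by -0.67 ± 0.21, and the receptors Ednrb, Ptgir and Bdkrb2 by -0.30, -0.33 and -0.37. The exception was Adrb1, the beta-1 adrenergic receptor, at 3.82, 4.23 and 5.53 FPKM in estrus against 1.09, 3.14 and 2.5 in diestrus.

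Of 19 tested anticoagulant and adhesion genes of endothelium, taken as one list, 16 were negative and 4 had no overlap with diestrus higher, beside 12.9% of all genes. Their median was -0.36, or -0.19 without either estrus replicate 2 or diestrus replicate 2. Plat, the tissue plasminogen activator, was at 9.79, 5.73 and 8.1 FPKM in estrus against 16.54, 17.24 and 10.83 in diestrus. Gas6, a vitamin K-dependent ligand, differed by -0.72 ± 0.23, Anxa2, a surface receptor of plasminogen, by -0.53 ± 0.16, and Pros1, protein S, by -0.37 ± 0.19. Among 36 tested complement and coagulation genes, which also include Plat and Pros1, 11 were positive and 25 negative with a median of -0.15, and 4 had no overlap with diestrus higher, a share no higher than the 12.9% of all genes. The other two were Serping1, the C1 inhibitor, and F2r, the thrombin receptor, with differences of -0.63 ± 0.24 and -0.32 ± 0.12. Most clotting factors made by liver, such as Fga and F9, were listed at 0 or near it.

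Genes of nerve were present at high level and lay toward diestrus. Fabp7, a fatty acid-binding protein of glia, had the largest negative difference of all leading genes, at 32.14, 26.86 and 16.78 FPKM in estrus against 112.01, 93.07 and 129 in diestrus. The difference was -2.13 ± 0.24 with an unadjusted limma p of 4.97e-05 and an adjusted p of 0.280, and it was -1.87 without estrus replicate 3. Of 14 Schwann cell and nerve genes, 13 were negative and 4 had no overlap with diestrus higher, beside 12.9% of all genes. Their median was -0.39, which was -0.12 without diestrus replicate 2 and -0.17 without estrus replicate 2. Sox10, the transcription factor of glial cells, was at 33.84, 21.04 and 22.51 FPKM in estrus against 34.83, 57.84 and 34.02 in diestrus, so that estrus replicate 1 and diestrus replicate 3 nearly met. Scn7a, Drp2 and Gfra3 had differences of -0.48, -0.56 and -0.74, each with no overlap.

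The genes of catecholamine synthesis overlapped between the phases. Dbh, which makes noradrenaline, was at 744.91, 346.02 and 336.52 FPKM in estrus against 694.11, 552.73 and 688.68 in diestrus. Th was at 401.72, 173.38 and 173.66 FPKM in estrus against 384.5, 286.97 and 367.45 in diestrus. Estrus replicate 1 was the highest of the 6 for both, and estrus replicates 2 and 3 the lowest. Stmn2, a protein of growing axons, was at 270.44, 153.87 and 150.19 FPKM in estrus against 292.36, 235.08 and 323.94 in diestrus. Pnmt, which turns noradrenaline into adrenaline, did not exceed 0.39 FPKM and Cyp11b1, an enzyme of the adrenal cortex, did not exceed 0.63. These 2 are among 14 listed genes of the adrenal gland and were named after their values were seen. Of the 14, 7 passed the floor of 1 FPKM, Th and Dbh among them. The part of adrenal tissue in these values was not tested. The part of nerve content in the difference of Fabp7 was not tested.

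Estrogen receptor alpha, encoded by Esr1, was at 12.51, 15.41 and 12.28 FPKM in estrus against 11.45, 10.26 and 10.43 in diestrus. The difference was 0.29 ± 0.12 with an unadjusted limma p of 0.0486 and an adjusted p of 0.412. Estrus was higher in all 3 libraries, but the closest pair differed by under 1 FPKM. Esr2, estrogen receptor beta, did not exceed 0.23 FPKM, and Pgr, the progesterone receptor, lay between 0.5 and 1.68 FPKM, both below the filter. Gper1, a membrane estrogen receptor, differed by -0.26 with overlap.

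Genes known to respond to estrogen did not follow the phase as a group. Of 27 tested, 7 were positive and 20 negative, where 33.0% of all genes were positive. None had no overlap with estrus higher and 2 with diestrus higher, a share below the 12.9% of all genes. The median was -0.28, or -0.12 without estrus replicate 2. The 2 were Nos3 and Krt19, a keratin, the latter at 1.19, 1.74 and 1.05 FPKM in estrus against 3.76, 3.49 and 2.45 in diestrus. Greb1, a standard estrogen target, did not exceed 0.71 FPKM. Of the 16 tested transcription factors that the study assigned to vein from these same samples, so that they are no independent set, Ebf1 alone had no overlap, at 20.76, 20.34 and 20.32 FPKM in estrus against 28.05, 31.78 and 24.72 in diestrus. Their median was -0.01, and it turned positive with either scaling.

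Immune genes turned on single libraries. The B cell list had a median of 1.19 with all 6 libraries and -0.08 without estrus replicate 3, the T cell list 1.17 and 0.03, and the lymph node stroma list 1.10 and 0.02. The sum over the T cell list was 334 FPKM in estrus replicate 3 and between 14.5 and 32.1 in the other 5. Marco, a scavenger receptor of macrophages in lymph node and spleen, was at 19.19 FPKM there and at most 0.07 elsewhere. Glycam1, made by the high endothelial venules of lymph nodes, was at 191.1 FPKM in estrus replicate 3, at 44.17 in estrus replicate 2 and at most 1.28 in the other 4. Ccr7, a receptor that guides cells to lymph nodes, was the 1 T cell gene with no overlap, at 0.87, 0.99 and 15.65 FPKM in estrus against 0.15, 0.22 and 0.86 in diestrus.

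Antigen presentation genes were high in a pair of libraries of opposite phase. Cd74, the invariant chain, was at 270.76, 229.78 and 851.42 FPKM in estrus against 179.08, 274.34 and 824.17 in diestrus, with replicate 3 high on both sides. The macrophage list had 10 positive and 8 negative genes, and Cx3cr1, the fractalkine receptor, had no overlap, at 1.09, 1 and 1.13 FPKM in estrus against 2.12, 1.56 and 2.46 in diestrus. Its ligand Cx3cl1 was on the same side, at 5.06, 3.2 and 4.22 FPKM against 8.57, 8.41 and 6.41. Of 22 interferon-stimulated genes 20 were negative, with a median of -0.36 and none without overlap, and the median was -0.15 with 8 positive without diestrus replicate 3 and -0.74 without diestrus replicate 1. The mast cell protease genes Tpsb2 and Cpa3 differed by -0.20 ± 0.10 and -0.34 ± 0.12 with no overlap. Haemoglobin overlapped widely, with Hba-a1 between 1929.65 and 5506.41 FPKM in estrus against between 1213.41 and 4032.8 in diestrus.

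**Figure D4:**
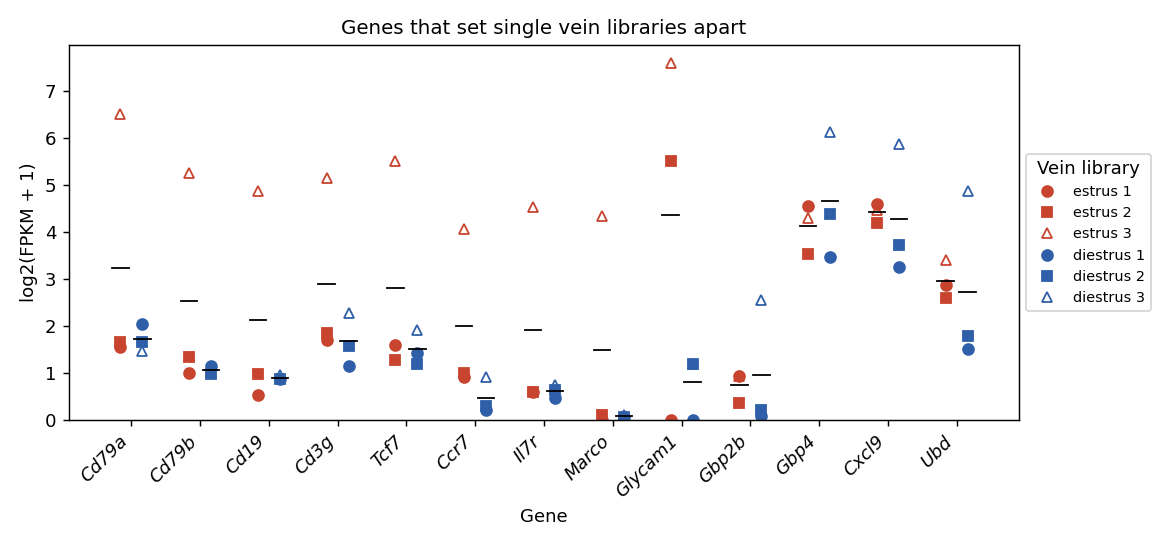
Genes that were high in single vein libraries, as log2(FPKM + 1) with 1 point per library and a black bar for each phase mean. Estrus replicate 3 (open red triangle) is far above the rest for the lymphocyte genes at the left, and diestrus replicate 3 (open blue triangle) is highest for the interferon-inducible genes at the right.

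Of 15 chaperones of the heat shock response 12 were negative and 3 positive, where 33.0% of all genes were positive. Their median was -0.33, and it was -0.18 without diestrus replicate 2. Hsp90aa1, a cytosolic chaperone, was at 184.69, 135.11 and 150.05 FPKM in estrus against 235.38, 211.62 and 218.1 in diestrus, and Hsph1 at 20.18, 20.63 and 20.12 against 25.01, 27.9 and 26.26. With Hsp90ab1 and Serpinh1 they made 4 of 15 without overlap on this side, beside 12.9% of all genes. The mitochondrial chaperone Hspd1 had no overlap with estrus higher, at 0.28 ± 0.16.

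**Figure D5:**
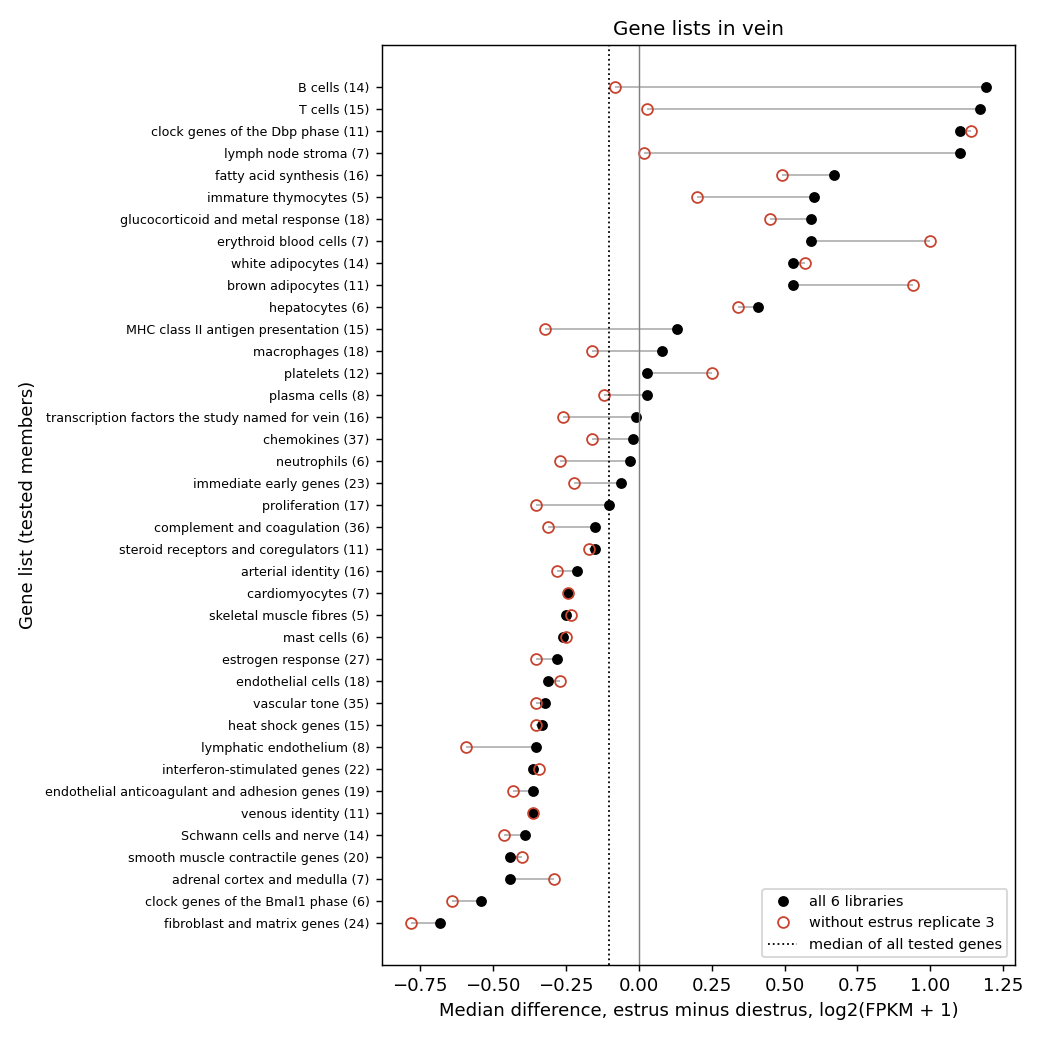
Median difference between estrus and diestrus of the gene lists with at least 5 tested members, with filled points for all 6 vein libraries, open red points without estrus replicate 3, and a dotted line at -0.10 for the median of all genes. Clock genes of the Dbp phase lie at 1.10 and 1.14 and matrix genes at -0.68 and -0.78, while the B cell, T cell and lymph node lists move from above 1 to near 0.

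The aorta, the other vessel of the series, was measured in 6 libraries of the same design, and the phase difference in vein was tested against that in aorta. No gene was called (0% of 13225), the lowest adjusted p was 0.696, and 432 genes (3.27%) had an unadjusted p under 0.05. In aorta alone, 2.39% of 12553 genes had no overlap with estrus higher and 9.54% with diestrus higher. Aorta estrus replicate 1 held little fat and much muscle: Acta2 was at 7925.02 FPKM there and between 669.36 and 1151.64 in the other 5 aorta libraries, and the white adipocyte sum was 4219 FPKM against 25583 to 28559. Aorta diestrus replicate 3 carried genes of airway and lymph node. Its airway and lung sum was 3339 FPKM against 4.94 to 17.1 in the other 5, and its lymph node stroma sum 672 against 18.3 to 33.8.

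The clock genes lay on the same side in both vessels. The median over the 11 Dbp-phase genes was 1.10 in vein and 1.11 in aorta, where 11 were positive and 3 had no overlap. Dbp was at 55.63, 253.84 and 131.25 FPKM in aorta in estrus against 2.51, 70.93 and 60.2 in diestrus, with replicate 1 again lowest. Its difference of 2.32 in aorta stood beside 2.31 in vein. The vessels came from the same mice, which the fit treats as independent, so likeness between them is not a second measurement of the phase. Of the glucocorticoid and metal response genes, 9 had no overlap with estrus higher and 1 with diestrus higher in aorta, with a median of 0.95 over 17 genes tested in both. Fkbp5 was at 18.86, 6.4 and 18.87 FPKM in aorta in estrus against 2.55, 2.1 and 3.19 in diestrus, and Mt1 was the member with the smallest p for the difference between vessels, 1.03 in vein against 0.29 in aorta (unadjusted limma p 0.0199, adjusted p 0.696).

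The medians of the matrix and fat lists, with every aorta library counted, did not line up between the vessels. The matrix list had a median of -0.68 in vein and 0.10 in aorta, the smooth muscle list -0.44 and 0.78, and the white adipocyte list 0.53 and -0.95, and in aorta estrus replicate 1 had the highest sums of the first 2 and the lowest of the third. The matrix sum in aorta was 6389, 1922 and 1917 FPKM in estrus against 2726, 2432 and 2191 in diestrus. Outside replicate 1 the estrus sums lay below all diestrus sums, as every estrus sum did in vein. White adipocyte sums were 4219, 28559 and 26029 FPKM against 27987, 25583 and 26371. Smooth muscle sums were 24934, 4142 and 4428 FPKM against 5249, 3803 and 3578. Both overlapped outside replicate 1. No fit left out an aorta library. Eln in aorta was at 1238.76 FPKM in estrus replicate 1 and at 57.4 and 74.41 in the other estrus libraries, against 412.69, 204.48 and 140.54 in diestrus. Endothelial genes had medians of -0.31 in both, and Cldn5 was at 27.48, 17.37 and 15.64 FPKM in aorta in estrus against 53.69, 32.93 and 47.29 in diestrus, with no overlap in either vessel. Of genes past an unadjusted p of 0.05, those with the smallest p toward vein were Ccdc125, Dhrs9, Naa40, Rabepk and Ruvbl2, each lower in estrus in aorta with vein differences between -0.29 and 0.40. Those with the smallest p toward aorta were Tmtc1, Rasl10b, Cacna2d3, Smim1 and Ppp1r14c, with vein differences between -0.18 and -0.77.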

How the data were processed

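Total RNA was taken with Trizol, libraries were made with the TruSeq v2 kit and read on a BGISEQ-500. The authors filtered reads with SOAPnuke, aligned them with Bowtie2 2.2.5 to GRCm38.p5 and quantified genes with RSEM 1.2.8, per their methods and processing notes, and deposited FPKM values for 20414 Entrez genes, which were used as deposited. Symbols came from a RefSeq table of GRCm38.p6 (20265 named, 149 not). Vein libraries were grouped by their labels. Values were analysed as log2(FPKM + 1) with limma 3.58.1 (R 4.3.3, intensity trend, genes averaging 1 FPKM or more in the fitted libraries), tested on simulated data, with Benjamini-Hochberg adjustment over all tested genes. A call needed a 2-fold difference and an adjusted p of at most 0.05. Fold changes on this scale understate low genes. By the study's text the replicates of a phase were 3 mice and all tissues came from them, so the contrast with aorta, which treats libraries as independent, leaves out that shared source.

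Named genes were the 12 on each side with the largest difference among those with p under 0.05, no overlap and at least 5 FPKM, the same without estrus replicate 3 (8 a side), hormone receptors, the most abundant and the non-overlapping members of each list, genes that set a library apart, and 5 a side against aorta. Angptl4, Ddit4, Zbtb16, Fkbp5, Pdgfra, Bdkrb2, Ptgir, Bhlhe41, Hlf, Cry2, Col5a1, Col14a1, Loxl1, Mfap5, Greb1, Fga, F9, Pnmt, Cyp11b1, Spon2, Apoc2, Sytl1, Col15a1 and the tissue markers fell outside it and were named after their values were seen. Members and lists were chosen with earlier results of these data known. Some genes the rule names are not reported here.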

Additional observations from a re-analysis of the deposited data

How the results depend on the processing

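The absence of calls in vein held under each setting of the 6 libraries that was tried, and one fit of all 90 libraries called 18 genes. The 1597 genes at an unadjusted p under 0.05 ranged from 667 without estrus replicate 2 to 2912 without estrus replicate 1, and were 738 without diestrus replicate 1 and 1026 without diestrus replicate 2. The 126 genes past a fold of 2 became 80 with a filter of 5 FPKM, 225 with a pseudocount of 0.1 and 874 at a log2 difference of 0.58, and ranged from 96 to 328 with 1 library left out, being 245 without diestrus replicate 3 and 197 without estrus replicate 2. The 2406 genes without overlap ranged from 2962 to 6403 with 1 library left out, and were 6203 with estrus replicate 3 and diestrus replicate 3 both left out, a setting chosen after seeing the data, since fewer values overlap less often. Other causes were not tested. No setting called a gene in the contrast with aorta.

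The median of the transcription factors named by the study was 0.19 with no filter, 0.09 with quantile normalization and 0.03 with upper quartile scaling, and ranged from -0.28 to 0.35 with libraries left out. With the filter applied again after libraries were left out, the B cell median ranged from -0.27 to 1.80 and the lymph node stroma median from -0.27 to 1.93. Nr1d1 ranged from -0.04 to 0.77. The other differences and medians tested kept their sign.

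Each phase had its own mice by the study's text, so replicate numbers did not pair animals between the phases. Deviations of same-numbered libraries correlated at 0.039, -0.287 and 0.140, and those of other pairs between -0.234 and 0.250. So few values cannot settle whether same-numbered libraries shared a batch. A fit with the replicate number within each tissue as a block gave 1211 genes at an unadjusted p under 0.05 in vein. It gave no call in vein or against aorta. That block did not join the vein and aorta of the same mouse. Depth, estimated from FPKM steps, limits statements on genes near the 1 FPKM floor, and with 3 libraries a phase a missed threshold does not show equal levels.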
